A study of Mus musculus with 4 samples.

Results

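The genes described here are 7 regulators of messenger RNA decay: Zfp36, Zfp36l1, Zfp36l2, Zc3h12a, Rc3h1, Rc3h2 and Elavl1. They were taken by name, and all 7 were found among the 23058 genes that both count tables of the series list. The series is single-cell RNA-seq of α lymphoid progenitors (αLPs), the Lin-CD127+FLT3-LPAM-1+ cells of mouse bone marrow from which innate lymphoid cells (ILCs) develop. It compared wild-type (WT) C57BL/6 mice with G3SEKO mice, in which Cas9 removed the GATA3-related tandem super-enhancers, enhancer clusters that lie distal to Gata3. No agent was given, mice were young adults of both sexes, cells of several mice were pooled in each genotype, and which of the derived G3SEKO lines the cells came from is not given in the sources used here. There were 2 experiments, which the labels say were sorted on different instruments, each with 1 library of messenger RNA and 1 library of hashtags, the antibody barcodes that mark the genotype of a cell.

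Cells were placed in gates by the reads of 5 genes on the scale ln(1 + reads per 10000), with a limit of 1. The Il1rl1+ gate held cells with Il1rl1, which encodes the IL-33 receptor ST2 of ILC2s, and without Ccr6 or Eomes. The Zbtb16+ gate held cells with Zbtb16, the PLZF factor of ILC precursors (ILCPs), and without Il1rl1, Ccr6 or Eomes. Cells with Icos and none of the other 4 genes formed the Icos+ gate, and cells with Ccr6 or with Eomes, but not with both and without Il1rl1, formed the Ccr6+ and Eomes+ gates. WT cells in experiment 1 numbered 88 Zbtb16+, 80 Icos+, 424 Il1rl1+, 2 Ccr6+ and 25 Eomes+, and in experiment 2 they numbered 216, 564, 3546, 38 and 25. G3SEKO cells numbered 17, 6, 1, 2 and 4 in experiment 1, in the same order. In experiment 2 they numbered 355 Zbtb16+, 49 Il1rl1+, 107 Ccr6+ and 42 Eomes+, with nearly as many Icos+ as Zbtb16+ cells. The labels of experiment 2 list both of its hashtags under WT, so every G3SEKO value of experiment 2 rests on the rule that assigns hashtag A0303 to G3SEKO. The labels do not say whether the hashtags of a genotype stand for separate mice. A gate is a range and not a cell type: in experiment 2, 341 of the kept WT cells lay within 0.25 of the Il1rl1 limit and 95 within 0.25 of the Zbtb16 limit.

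Messenger RNAs of cytokines and other short-lived transcripts often carry AU-rich elements in their 3′ untranslated region. The ZFP36 proteins (tristetraprolin, encoded by Zfp36, and its relatives encoded by Zfp36l1 and Zfp36l2) bind a short AU-rich nonamer in such elements and recruit the CCR4-NOT deadenylase, which shortens the poly(A) tail. Regnase-1, encoded by Zc3h12a, cuts stem-loops in 3′ untranslated regions, Roquin-1 and Roquin-2 (Rc3h1 and Rc3h2) bind such stem-loops and also recruit CCR4-NOT, and HuR (Elavl1) binds AU-rich elements and stabilises the transcript. In lymphocytes the destabilising proteins are known to limit cytokine production, and Zfp36l1 and Zfp36l2 are known to restrain proliferation during early lymphocyte development.

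The 7 genes lie on 7 chromosomes. Zfp36 (ENSMUSG00000044786, chr7:28376784-28380253), Zfp36l1 (ENSMUSG00000021127, chr12:80107754-80113013) and Zfp36l2 (ENSMUSG00000045817, chr17:84183931-84187947) are short genes of 2 exons on the minus strand. Zc3h12a (ENSMUSG00000042677, chr4:125118423-125127840, minus strand) and Elavl1 (ENSMUSG00000040028, chr8:4285382-4325413, minus strand) have 6 exons. Rc3h1 (ENSMUSG00000040423, chr1:160906418-160974978, plus strand) and Rc3h2 (ENSMUSG00000075376, chr2:37370069-37422903, minus strand) have 20. The transcripts of the regulators themselves carry the element that the ZFP36 proteins read. In 1 GENCODE transcript per gene (build GRCm38), the nonamer TTATTTATT was found in the 3′ untranslated region of 6 of the 7 genes (85.7%), against 1477 of 20698 protein-coding genes (7.14%). The 3′ untranslated regions of the 7 genes had a median of 1835 bases, against 848 for all, and the pentamer ATTTA occurred 3.75 times per kilobase, against 1.94. These counts are a description of sequence, and length was not matched. Zc3h12a had 3 pentamers and no nonamer in its 856 bases, and Elavl1 had 8 nonamers close together, most of which overlap. The windows below show the first nonamer of each gene in capitals with 10 bases on either side, all of them in the 3′ untranslated region and written 5′ to 3′ on the gene's strand.
Zfp36, chr7:28376951-28376979, minus strand: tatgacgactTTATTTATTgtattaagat
Zfp36l1, chr12:80108167-80108195, minus strand: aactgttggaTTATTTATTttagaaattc
Zfp36l2, chr17:84184914-84184942, minus strand: actatttaacTTATTTATTatcttgtgaa
Rc3h1, chr1:160970043-160970071, plus strand: actttactcaTTATTTATTgagatgagga
Rc3h2, chr2:37373287-37373315, minus strand: caaagacattTTATTTATTttactctgta
Elavl1, chr8:4285788-4285816, minus strand: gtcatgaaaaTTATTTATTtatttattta

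The 250 bases before the start were read from the RefSeq promoters (GRCm38.p6), which held 6 of the 7 genes, all but Zfp36l2. They were searched on both strands for AP-1 (TGANTCA, in 6.87% of 27025 promoters), CRE (TGACGTCA, 1.62%), the letters AGATAA read by GATA3 and its relatives (10.3%), STAT (TTCNNNGAA, 7.18%), RUNX (TGTGGTT, 4.46%), the CArG box (1.4%) and NF-kB (3.75%). Matches were found in Zfp36, Zfp36l1 and Rc3h1, and they are shown in capitals because the levels of Zfp36 and Zfp36l1 followed the order of the gates and that of Rc3h1 did not. The RefSeq start of Zfp36 lies inside the first exon of its GENCODE transcript, so its windows are annotated as 5′ untranslated there. A match to these letters is not evidence of binding.
Zfp36, CArG box, chr7:28379267-28379296, minus strand: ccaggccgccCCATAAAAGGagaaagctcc
Zfp36, STAT, chr7:28379229-28379258, minus strand: gccacagcctgacTTCTGCGAAccgacagt
Zfp36l1, AP-1, chr12:80113124-80113153, minus strand: gaccgcatggcTGATTCAacctcagtgtca
Rc3h1, AP-1, chr1:160906267-160906296, plus strand: gttggggccggTGACTCAgagctttcctcc

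Reads were summed over the cells of each gate, genotype and experiment and are given as CPM (reads per 1000000 reads of the sum), so levels are compared between gates of a gene and not between genes. Kept WT cells had a median of 396198 reads in experiment 1 and 29677 in experiment 2, and kept G3SEKO cells had 509911 and 42814. In both experiments WT Zbtb16+ cells were deeper than WT Il1rl1+ cells, with medians of 7110 against 5215 genes and 2698 against 1908 genes per cell. In WT cells the summed level of 5 ILCP markers was 4050 and 4200 CPM in the Zbtb16+ gate, against 201.5 and 151.2 CPM in the Il1rl1+ gate. The 4 ILC2-committed markers were highest in the Icos+ gate, at 3102 and 2783 CPM. The summed level of the 8 ILC2 markers did not separate the gates. It was 2968, 2880 and 3634 CPM in the Zbtb16+, Icos+ and Il1rl1+ gates of experiment 1 and 3233, 2278 and 3569 CPM in those of experiment 2. Gene by gene they did differ. Of the 8, which include the gate gene Il1rl1, 7 were higher in the Il1rl1+ than in the Zbtb16+ gate, with a median log2 difference of 4.43. At an unadjusted p under 0.05 in edgeR 6 were higher and 1 lower, against 5.05% and 4.72% of all genes tested. Each of these lists holds the gene of 1 gate (Zbtb16, Icos or Il1rl1), so the gates fix their sums in part. In the WT Zbtb16+, Icos+ and Il1rl1+ sums, markers of other lineages were at 1.78 to 28.6 CPM for 3 T-cell genes, 0.858 to 15.5 CPM for 5 myeloid genes, 32.3 to 59.5 CPM for the 3 B-cell genes in the tables and 59.4 to 137.2 CPM for the 1 mast cell and basophil gene. The 6 NK/ILC1 markers moved with the gates compared below, at 221.2, 295.2 and 21.15 CPM in the Zbtb16+, Icos+ and Il1rl1+ gates of experiment 1 and 129.7, 20.4 and 19.13 CPM in those of experiment 2, and the 4 LTi/ILC3 markers in the tables were at 25.7 to 154 CPM. The 2 erythroid genes in the tables were at 3.29, 3.04 and 24.7 CPM in these gates of experiment 1 and 2.67, 15.95 and 23.5 CPM in those of experiment 2, so they were highest in the Il1rl1+ gate (median log2 difference from the Zbtb16+ gate 2.85, 1 of the 2 at an unadjusted p under 0.05). Their part in the results was not tested. Gata3 itself was at 498.3 against 782.5 CPM in Zbtb16+, 460.7 against 1004 CPM in Icos+ and 296.1 against 1039 CPM in Il1rl1+ cells of G3SEKO against WT in experiment 2, while in the Zbtb16+ cells of experiment 1 it was 936.6 against 861.8 CPM.

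Among WT cells, the 3 ZFP36 family transcripts were each higher in the Il1rl1+ gate than in the Zbtb16+ gate, in both experiments, and the Icos+ gate lay between. Zfp36 was at 52.7, 153 and 234.5 CPM in the Zbtb16+, Icos+ and Il1rl1+ gates of experiment 1, with 215, 398 and 695 CPM in those of experiment 2. Zfp36l1 was at 400, 547 and 986 CPM in experiment 1, with 361, 597 and 851 CPM in experiment 2. Zfp36l2 was at 408, 504 and 1121 CPM in experiment 1, with 636, 1262 and 2054 CPM in experiment 2. Within each experiment the order of the gates was thus the same for all 3 genes. Across the experiments the Il1rl1+ and Zbtb16+ values of Zfp36l1 and Zfp36l2 did not overlap, and those of Zfp36 came near each other, since its level in the Zbtb16+ gate of experiment 2 almost reached that in the Il1rl1+ gate of experiment 1. The share of all genes without such overlap was not counted, so nothing particular to these genes is read from it.

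**Figure D1:**
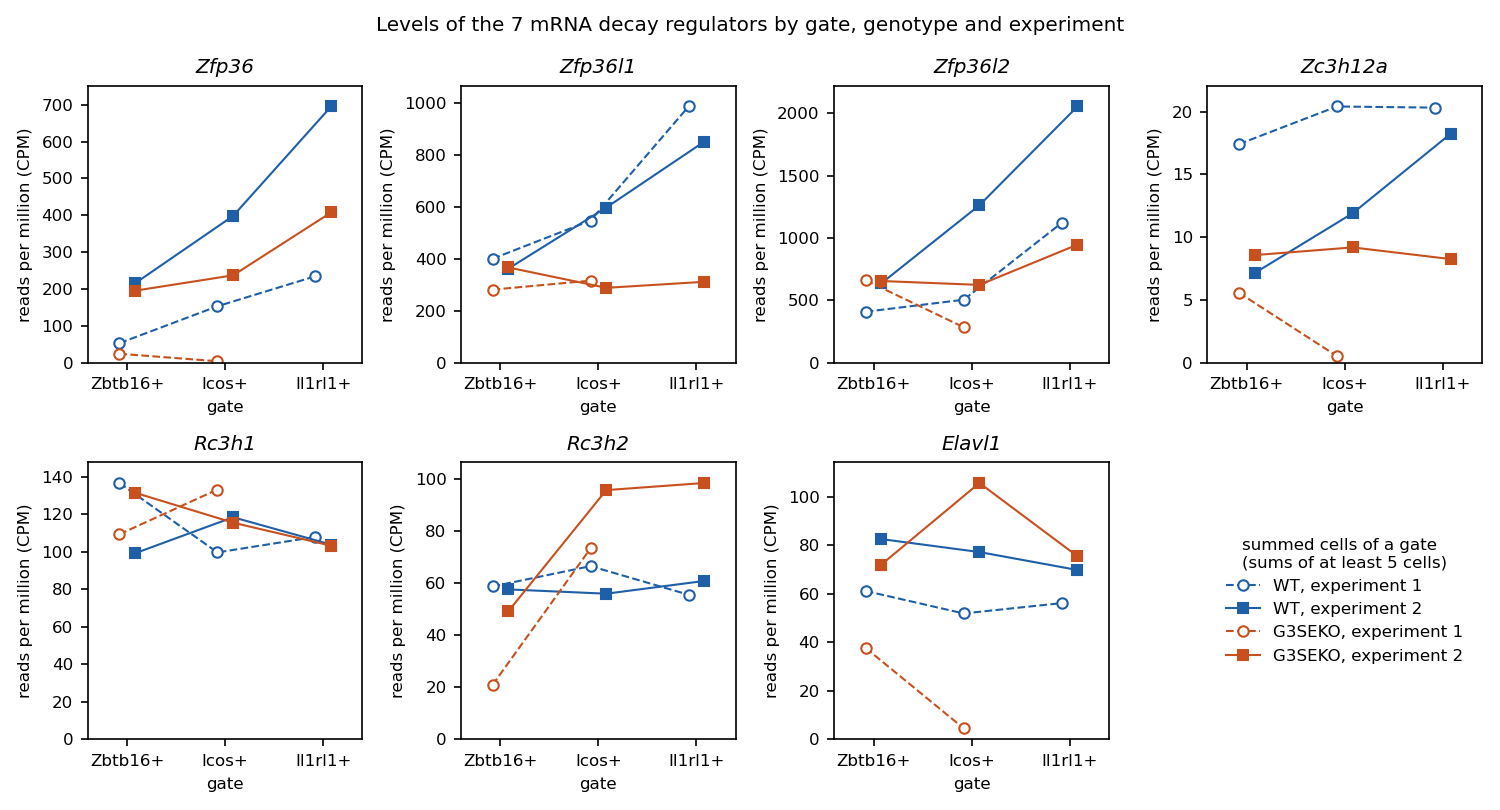
Levels of the 7 genes in CPM (reads per 1000000, vertical axis, each gene on its own scale from 0) in the summed cells of 3 gates (horizontal axis), with 1 point per genotype and experiment and lines that only join the points of one experiment; sums of fewer than 5 cells are not drawn. In WT cells Zfp36, Zfp36l1 and Zfp36l2 climb from the Zbtb16+ to the Il1rl1+ gate in both experiments, while Rc3h1, Rc3h2 and Elavl1 keep no such order.

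The gates were compared with edgeR's quasi-likelihood test on 8 sums of WT cells (4 gates, with the experiment as a block). The log2 difference between Il1rl1+ and Zbtb16+ cells was 1.98 (SE 0.23) for Zfp36, a 3.95-fold higher level, with an adjusted p of 0.0594 in edgeR. For Zfp36l1 it was 1.33 (SE 0.18), 2.52-fold, with an adjusted p of 0.0698, and for Zfp36l2 it was 1.64 (SE 0.27), 3.11-fold, with an adjusted p of 0.103. None of the 7 genes therefore passed an adjusted p of 0.05, and in this edgeR fit with 3 residual degrees of freedom 3 of 19268 genes did (0.0156%), namely the gate gene Il1rl1 and, in the other direction, Myb and Plac8. An unadjusted p under 0.05 was found for 1883 genes (9.77%). The 3 ZFP36 genes were among the 973 genes that were higher (5.05%), and none of the 7 was among the 910 that were lower (4.72%).

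The 2 single-experiment log2 ratios were 2.16 and 1.69 for Zfp36, 1.30 and 1.24 for Zfp36l1, and 1.46 and 1.69 for Zfp36l2. The median log2 difference was 0.06 over all genes tested and 0.93 over the 7 genes.

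**Figure D2:**
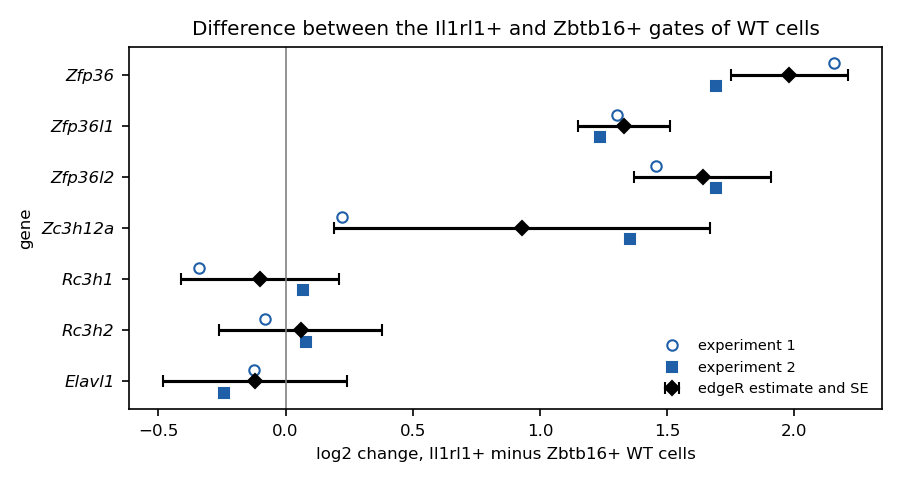
Log2 difference between the Il1rl1+ and Zbtb16+ gates of WT cells (horizontal axis) for each gene (vertical axis), as the edgeR estimate with its standard error (black diamonds) and as the ratio of each experiment (circles, experiment 1; squares, experiment 2). Zfp36, Zfp36l1 and Zfp36l2 lie between 1.24 and 2.16 in both experiments, and Rc3h1, Rc3h2 and Elavl1 lie near 0.

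Whether the ZFP36 genes passed the test differed between the alternatives. The DESeq2 Wald test on the same sums called all 3 higher, with adjusted p of 4.74e-08 for Zfp36, 3.99e-05 for Zfp36l1 and 0.000691 for Zfp36l2, in a comparison in which it called 3.21% of 17026 genes higher. After every cell was thinned to the authors' read limit of experiment 2, edgeR also called all 3 higher (adjusted p of 0.00247, 0.00207 and 0.012), among 1.83% of 10788 genes. With the 3 WT hashtags of experiment 1 summed apart, edgeR called Zfp36l1 (0.00672) and Zfp36l2 (0.0038) but not Zfp36 (0.347), among 0.663% of 17798 genes. These hashtags share a library and may not be separate mice, so this alternative may count parts of 1 sample as replicates. Over 10 alternatives with a test, adjusted p ranged from 4.74e-08 to 0.673 for Zfp36, from 3.99e-05 to 0.182 for Zfp36l1 and from 0.000691 to 0.286 for Zfp36l2, and each gene passed in 3 of the 10. The log2 differences stayed between 1.38 and 2.09, 1.06 and 1.48, and 1.12 and 1.67 over these alternatives.

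**Figure D3:**
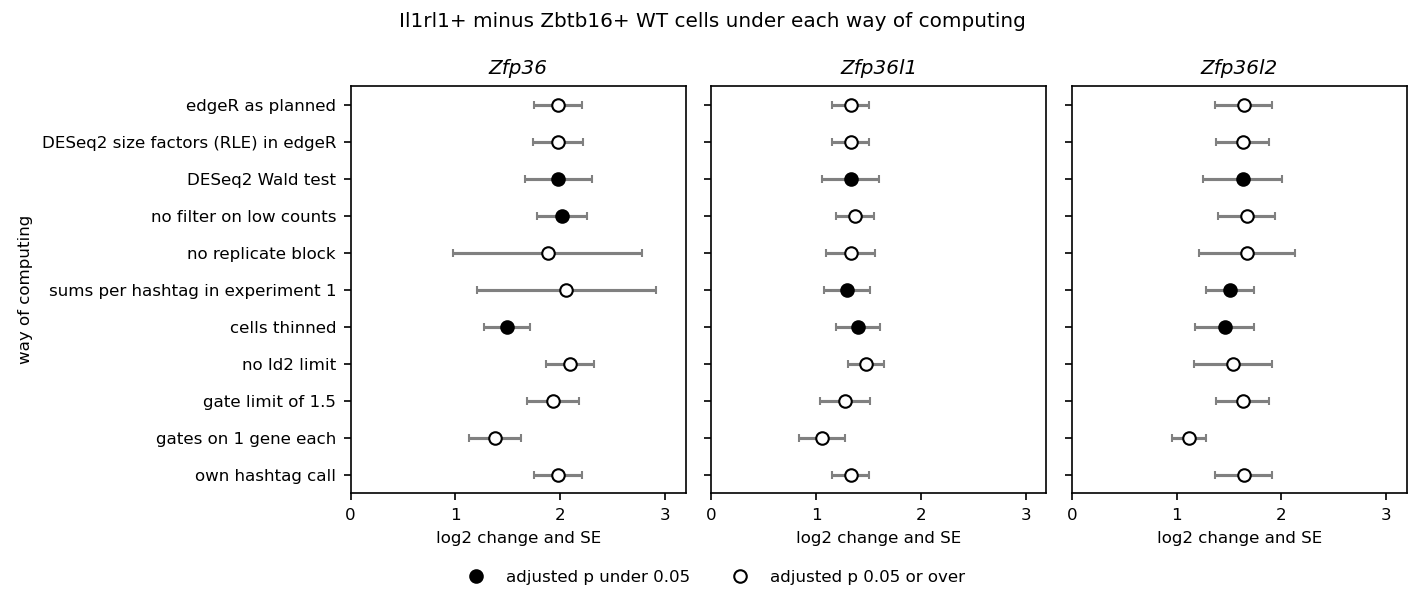
Log2 difference between the Il1rl1+ and Zbtb16+ gates of WT cells with its standard error (horizontal axis) for Zfp36, Zfp36l1 and Zfp36l2 under each way of computing (vertical axis), with filled points where the adjusted p was under 0.05. All estimates are above 1, and 3 alternatives are filled in each panel.

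The hashtags of experiment 1 give the spread of each gene within that experiment. Zfp36l1 was at 394, 465 and 328 CPM in the Zbtb16+ cells of the 3 WT hashtags and at 942, 963 and 1059 CPM in their Il1rl1+ cells. Zfp36l2 was at 485, 347 and 412 CPM in Zbtb16+ and at 1018, 857 and 1507 CPM in Il1rl1+ cells. Zfp36 was at 71.3, 69.9 and 16.6 CPM in Zbtb16+ and at 188, 191 and 331 CPM in Il1rl1+ cells. For each of the 3 genes every Il1rl1+ value was above every Zbtb16+ value. The share of all genes for which this holds was not counted, so it is a description only. Hashtag A0309 had the highest Il1rl1+ value of all 3 genes and the lowest Zbtb16+ value of Zfp36 and Zfp36l1.

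A CPM of a sum does not say whether more cells had reads or cells had more of them, so the share of cells with at least 1 read was counted before and after thinning (exact binomial 95% intervals, which cover counting error only). The share of WT cells with a Zfp36 read after thinning was 19.3% (11.7 to 29.1) in Zbtb16+ and 36.6% (32.0 to 41.3) in Il1rl1+ cells of experiment 1, and 31.5% (25.4 to 38.1) and 55.8% (54.1 to 57.4) in those of experiment 2. Before thinning the order in experiment 1 was the opposite, at 87.5% in the deeper Zbtb16+ cells and 72.6% in Il1rl1+ cells, and in experiment 2 the shares were 48.6% and 66.1%. For Zfp36l1 the thinned shares were 62.5% (51.5 to 72.6) against 88.7% (85.3 to 91.5) in experiment 1 and 58.8% (51.9 to 65.4) against 81.9% (80.6 to 83.2) in experiment 2, from unthinned shares of 98.9%, 99.3%, 77.8% and 91.0%. For Zfp36l2 they were 68.2% (57.4 to 77.7) against 85.1% (81.4 to 88.4) and 67.6% (60.9 to 73.8) against 92.4% (91.4 to 93.2), from 98.9%, 98.8%, 87.0% and 96.45%. At equal depth, reads of each ZFP36 gene were thus found in a larger share of Il1rl1+ cells in both experiments.

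The steps on either side of the Icos+ gate were smaller than the whole difference. Icos+ cells exceeded Zbtb16+ cells by a log2 difference of 1.28 (SE 0.23, edgeR adjusted p = 0.295) for Zfp36, 0.65 (SE 0.17, 0.478) for Zfp36l1 and 0.73 (SE 0.27, 0.601) for Zfp36l2. In that comparison edgeR called 0 genes (0%) and 1440 (7.47%) had an unadjusted p under 0.05, with the 3 ZFP36 genes among the 756 higher ones (3.92%). DESeq2 called 772 genes, 2.18% of those tested being higher, with Zfp36 among them (adjusted p = 0.0037), and edgeR on thinned cells called Zfp36 (log2 difference 1.15, adjusted p = 0.0401) among 0.408% higher, within a range of 0.0037 to 1 over its alternatives. Il1rl1+ cells exceeded Icos+ cells by 0.70 (SE 0.22) for Zfp36, 0.69 (SE 0.17) for Zfp36l1 and 0.90 (SE 0.27) for Zfp36l2, with adjusted p of 0.996 or 1 in edgeR, which called 0 genes (0%), with 738 (3.83%) at an unadjusted p under 0.05 and the 3 ZFP36 genes among the 288 higher ones (1.49%). DESeq2 called 256 genes in that comparison (1.44%) and none of the 7. On the unthinned sums no step between neighbouring gates passed an adjusted p of 0.05 in edgeR for any of the 7 genes.

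Inside the Il1rl1+ gate the ZFP36 genes varied less than between gates. In WT cells with an Il1rl1 value of 1 to 2, 2 to 3 and over 3, Zfp36l2 was at 983, 1162 and 1261 CPM in experiment 1, with 1885, 2067 and 2210 CPM in experiment 2. Zfp36 was at 206, 249 and 238 CPM and at 649, 709 and 713 CPM. Zfp36l1 was at 892, 1005 and 1121 CPM in experiment 1 but at 863, 869 and 793 CPM in experiment 2. Over single cells of this gate Spearman's rho with Il1rl1 was 0.0729, 0.0896 and 0.0598 for Zfp36, Zfp36l1 and Zfp36l2 in the 424 cells of experiment 1, but -0.0153, -0.0143 and 0.0537 in the 3546 of experiment 2 (sparse counts of 1 library each), so no relation with Il1rl1 is read from these ranges.

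Zfp36 and Zfp36l2 also differed between the experiments. Experiment 2 over experiment 1 gave 4.09-fold, 2.6-fold and 2.97-fold for Zfp36 and 1.56-fold, 2.5-fold and 1.83-fold for Zfp36l2 in the Zbtb16+, Icos+ and Il1rl1+ gates of WT cells, against 0.905-fold, 1.09-fold and 0.863-fold for Zfp36l1. The median absolute fold over genes of at least 20 CPM was 1.27, 1.28 and 1.19. Zfp36 is an immediate early gene, and the summed level of 13 immediate early and heat shock genes moved in the same direction, at 1116, 1403 and 1785 CPM in experiment 1, with 2341, 3318 and 4098 CPM in experiment 2. That sum was thus higher in the Il1rl1+ than in the Zbtb16+ gate and higher in experiment 2, and its part in the Zfp36 values was not tested. In the Il1rl1+ minus Zbtb16+ comparison 3 of the 13 genes (Junb, Fosb and Ier2) were higher at an unadjusted p under 0.05 and none was lower, with a median log2 difference of 0.57. Over all genes tested 5.05% were higher and 4.72% lower, with a median of 0.06. Junb, an AP-1 subunit, was at 59.4, 175 and 391 CPM in the 3 gates of experiment 1, with 165, 551 and 912 CPM in experiment 2 (log2 difference 2.65, SE 0.31, edgeR adjusted p = 0.0594, 9.04e-10 to 0.264 over its alternatives); it is named after its values were seen.

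Likeness was measured as Pearson's r of log2(CPM + 1) over the 15 sums of at least 10 cells, among 7934 genes of at least 20 CPM on average. These sums share libraries and gates, so r is a description. The patterns most like that of Zfp36 were those of Nr1d2 (0.932), Tbc1d9b (0.92) and 4932438A13Rik (0.905). For Zfp36l1 they were Herc1 (0.876), Il9r (0.835) and Sptssa (0.823), and for Zfp36l2 they were Gm8995 (0.847), Nr3c1 (0.845), which encodes the glucocorticoid receptor, and the gate gene Il1rl1 (0.838). Among the ZFP36 genes r was 0.547 for Zfp36 with Zfp36l1, 0.594 for Zfp36 with Zfp36l2 and 0.559 for Zfp36l1 with Zfp36l2, and Zfp36 was more like Rc3h2 (0.719) than like either relative. Zc3h12a was below the limit on mean level.

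Zc3h12a, the Regnase-1 gene, was rare in these cells. It was at 17.4, 20.4 and 20.3 CPM in the Zbtb16+, Icos+ and Il1rl1+ gates of WT cells in experiment 1, with 7.13, 11.9 and 18.2 CPM in experiment 2. The log2 difference between Il1rl1+ and Zbtb16+ cells was 0.93 (SE 0.74, edgeR adjusted p = 0.924), with 0.22 in experiment 1 and 1.35 in experiment 2. The WT hashtags of experiment 1 spread from 1.63 to 33.45 CPM in the Zbtb16+ gate and from 10.4 to 36.2 CPM in the Il1rl1+ gate, so the gates overlapped.

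The Roquin genes and Elavl1 showed no order of gates. Rc3h1 was at 137, 99.7 and 108 CPM in the Zbtb16+, Icos+ and Il1rl1+ gates of experiment 1, with 99.3, 118.5 and 104 CPM in experiment 2, with a log2 difference between Il1rl1+ and Zbtb16+ cells of -0.10 (SE 0.31). Rc3h2 was at 58.7, 66.6 and 55.6 CPM and at 57.6, 56.0 and 60.9 CPM, with a log2 difference of 0.06 (SE 0.32). Elavl1, the stabiliser of the set, was at 61.1, 51.8 and 56.1 CPM and at 82.5, 77.1 and 69.7 CPM, with a log2 difference of -0.12 (SE 0.36). The adjusted p was 1 for each in edgeR. Their gates overlapped, and with these standard errors the estimates of Zfp36, Zfp36l1 and Zfp36l2 each lie more than 2 SE above those of these 3 genes.

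In the Eomes+ gate, 25 WT cells in each experiment, the 7 genes were not called against the Zbtb16+ gate by edgeR (0 genes, 0%) or by DESeq2 (1855 genes, 11.1%). At an unadjusted p under 0.05 there were 2701 genes (14%), with Zfp36l1 among the 1962 lower ones (10.2%). Zfp36 was at 45.8 and 214 CPM there, Zfp36l1 at 221 and 310 CPM, and Zfp36l2 at 414.5 and 566 CPM. A single cell in each experiment held 46.8% and 45.8% of the Zfp36 reads of the Eomes+ sum, and the 3 hashtags of experiment 1 were at 7.45, 1.93 and 138 CPM. Zfp36l2 was near its Zbtb16+ value in both experiments, and Zfp36l1 was 1.81-fold and 1.17-fold below its own (log2 difference -0.50, SE 0.18, adjusted p = 0.309). The 3 T-cell genes summed to 365 and 94.8 CPM in these cells, more than in the other WT gates named above, and their part was not tested.

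Genes of the wider decay machinery were found on both sides. Of 82 genes in 6 lists (other RNA-binding regulators, CCR4-NOT with BTG/TOB, decapping, exosome, the PAN2-PAN3 group, and enzymes that act on the 7 regulators), 81 were tested between Il1rl1+ and Zbtb16+ WT cells, none was called by edgeR, 5 were higher and 6 lower at an unadjusted p under 0.05, and the median log2 difference was -0.00. These counts were near the 5.05% higher and 4.72% lower over all genes tested, so they are no result about the machinery. DESeq2 called 5 of the 81 higher and 2 lower, against 3.21% and 4.1% of all genes. Among the 16 genes of CCR4-NOT and its BTG/TOB partners, Cnot6l, a deadenylase subunit of that complex, had the largest log2 difference of the list. It was at 339, 657 and 953 CPM in the Zbtb16+, Icos+ and Il1rl1+ gates of experiment 1, with 458, 801 and 1037 CPM in experiment 2 (log2 difference 1.40, SE 0.16, edgeR adjusted p = 0.0594, 3.36e-07 to 0.141 over its alternatives). Btg1, which links RNA-binding proteins to the deadenylase, differed by 1.13 (SE 0.29), and Cnot3 by -0.88 (SE 0.23), with adjusted p of 0.258 and 0.265. Cnot6, the paralogue of Cnot6l, differed by -0.47 (SE 0.17, adjusted p = 0.429). Malt1, the protease that cleaves Regnase-1 and the Roquins, differed by 1.66 (SE 0.44, adjusted p = 0.273).

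Transcripts described as targets of these regulators were found on both sides. Of 24 such transcripts 20 were tested, 6 were higher (Csf2, Il5, Nfkbiz, Pim1, Tnfrsf4 and Vegfa) at an unadjusted p under 0.05 and 2 were lower (Cdk6 and Tnf), with a median of 0.89, against 5.05% higher, 4.72% lower and a median of 0.06 over all genes tested. None was called by edgeR, and DESeq2 called 5 higher and 2 lower, against 3.21% and 4.1% of all genes. Cdk6, a cell-cycle kinase whose transcript carries 1 nonamer in a 3′ untranslated region of 10217 bases, was at 372, 198 and 118 CPM in the Zbtb16+, Icos+ and Il1rl1+ gates of experiment 1, with 332, 211 and 131.5 CPM in experiment 2 (log2 difference -1.43, SE 0.25, adjusted p = 0.113, 0.000247 to 0.247 over its alternatives). Its order of gates was the opposite of that of the ZFP36 genes in both experiments. Tnf, with 5 nonamers, differed by -2.43 (SE 0.73), and Csf2, with 4, by 4.91 (SE 1.43), with adjusted p of 0.329 and 0.311. Cnot6l, Cdk6 and the genes named with them in these lists were named after their values were seen.

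G3SEKO and WT cells were then compared within gates, in an edgeR fit of 8 sums over the Zbtb16+ and Icos+ gates. In the Zbtb16+ gate the ZFP36 genes gave no common direction. Zfp36 was at 24.0 against 52.7 CPM in experiment 1, with 195 against 215 CPM in experiment 2 (log2 difference -0.69, SE 0.97). Zfp36l1 was at 281 against 400 CPM and at 366 against 361 CPM (-0.23, SE 0.21), and Zfp36l2 was at 660 against 408 CPM and at 654 against 636 CPM (0.43, SE 0.33). All 7 genes had an adjusted p of 1, edgeR called 0 genes (0%) and 271 (1.5%) had an unadjusted p under 0.05, and DESeq2 called 20 genes (0.11%), none of the 7.

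In the Icos+ gate the summed CPM of all 3 ZFP36 genes was lower in G3SEKO cells in both experiments. The edgeR log2 difference in this gate was below 0 for 11037 of the 18106 genes tested. Zfp36l1 was at 316 against 547 CPM in experiment 1, with 288 against 597 CPM in experiment 2 (log2 difference -0.92, SE 0.21, edgeR adjusted p = 0.865). Zfp36l2 was at 283 against 504 CPM and at 623 against 1262 CPM (-0.95, SE 0.33, adjusted p = 0.865). In experiment 1 a single G3SEKO cell held 59.7% of its reads, and in thinned cells the order turned over (594 against 477 CPM), so experiment 1 gives no firm direction for Zfp36l2. Zfp36 was at 3.63 against 153 CPM, from 14 reads in 6 G3SEKO cells, and at 237 against 398 CPM (-2.53, SE 1.09, adjusted p = 0.865). Experiment 1 thus held few G3SEKO cells, and experiment 2 alone gave log2 ratios of -1.05 for Zfp36l1, -1.02 for Zfp36l2 and -0.75 for Zfp36.

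For this gate edgeR called 0 genes (0%), with 673 (3.72%) at an unadjusted p under 0.05. Zfp36l1 and Zfp36l2 were among the 396 of these that were lower (2.19%), and DESeq2 called 119 genes (0.657%), none of the 7. Thinned cells gave 71 called genes, with Zfp36 among the 56 lower ones (0.521%) (log2 difference -1.78, adjusted p = 0.0322, within a range of 0.0322 to 0.986 over its alternatives). The median log2 difference over all genes tested was -0.31, and over genes of at least 20 CPM it was -0.14, so the ZFP36 genes lay below both. The G3SEKO Icos+ cells also differed in make-up: the ILCP markers summed to 1307 against 361.7 CPM and the ILC2-committed markers to 4235 against 2783 CPM in experiment 2. Of 8 ILC2 markers 7 were lower, with a median log2 difference of -2.40. At an unadjusted p under 0.05 in edgeR 5 of them were lower and 1 higher. Il1rl1, below the gate limit in these cells, was at 10.2 against 41.6 CPM in experiment 2. The LTi/ILC3 markers summed to 1092 against 124.4 CPM in experiment 1 and 298.7 against 79.6 CPM in experiment 2, and the NK/ILC1 markers to 4.67 against 295.2 CPM and 246.1 against 20.4 CPM. The mast cell and basophil gene was at 211.9 against 137.2 CPM and 176.8 against 66.9 CPM, and the T-cell genes at 1.56 against 1.78 CPM and 35.9 against 10.4 CPM. Their part in the ZFP36 values was not tested.

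In the Il1rl1+ gate only 1 G3SEKO cell was kept in experiment 1, so the G3SEKO arm was the sum of 49 cells of experiment 2. Zfp36l1 was 2.74-fold lower in it than the 851 CPM of WT cells, Zfp36l2 was at 946 against 2054 CPM, 2.17-fold lower, and Zfp36 at 408 against 695 CPM, 1.71-fold lower, with 30.9% of the Zfp36 reads of G3SEKO cells from 1 cell. The G3SEKO value of Zfp36l1 was below that of every WT Icos+ and Il1rl1+ sum and near those of the G3SEKO Zbtb16+ and Icos+ sums (366 and 288 CPM). Zfp36l2 and Zfp36 were above their G3SEKO Zbtb16+ levels of 654 and 195 CPM.

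A fit chosen after seeing the data, with 11 sums that include this lone sum, assumed that the sum varies like the others. It gave log2 differences of -1.67 (SE 0.24, edgeR adjusted p = 0.212) for Zfp36l1, -1.18 (SE 0.39, 0.597) for Zfp36l2 and -1.46 (SE 1.26, 0.789) for Zfp36, beside medians of -0.65 over all genes tested and -0.19 over genes of at least 20 CPM. EdgeR called 0 genes (0%), with 1480 (7.32%) at an unadjusted p under 0.05, and Zfp36l1 and Zfp36l2 were among the 1046 of these that were lower (5.17%). DESeq2 called 561, with Zfp36l1 (adjusted p = 0.00722) among the 320 lower ones (2.36%). Thinned cells gave 292 called genes, with Zfp36l1 (adjusted p = 0.000404), Zfp36l2 (0.046) and Zfp36 (0.0495) among the 109 lower ones (0.8%). Over 10 alternatives adjusted p ranged from 0.000404 to 0.984 for Zfp36l1, from 0.046 to 1 for Zfp36l2 and from 0.0495 to 1 for Zfp36. The G3SEKO cells of this gate were not like the WT cells of the gate in other respects: Il1rl1 was at 574 against 1363 CPM, Gata3 at 296.1 against 1039 CPM, Zbtb16 at 305 against 30.6 CPM and Myb at 143 against 2.70 CPM. In experiment 2 the NK/ILC1 markers summed to 140 against 19.1 CPM, the LTi/ILC3 markers to 151 against 25.7 CPM and the mast cell and basophil gene was at 191 against 59.4 CPM, while the 2 erythroid genes were at 0 against 23.5 CPM. How far the ZFP36 values follow from that make-up was not tested.

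**Figure D4:**
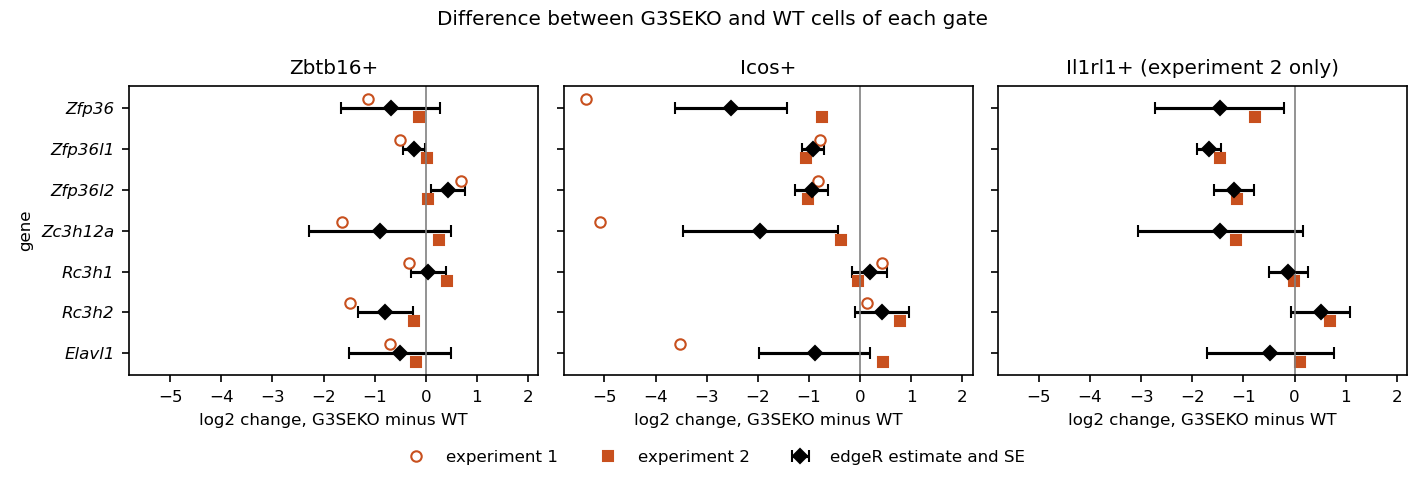
Log2 difference between G3SEKO and WT cells (horizontal axis) for each gene (vertical axis) in the Zbtb16+, Icos+ and Il1rl1+ gates, as the edgeR estimate with its standard error (black diamonds) and as the ratio of each experiment (circles, experiment 1; squares, experiment 2). Zfp36l1 and Zfp36l2 lie at or below -0.79 in both experiments of the Icos+ gate and in the Il1rl1+ gate, which has experiment 2 only, and the Icos+ circle of Zfp36 at -5.37 rests on 14 reads.

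The genotype difference was also compared between gates, by interaction terms chosen after seeing the data. The terms with the Il1rl1+ gate rest on its single G3SEKO sum, so their SE and p assume that this sum varies like the others. That in the Il1rl1+ gate was below that in the Zbtb16+ gate by 1.42 on the log2 scale for Zfp36l1 (log2 -1.42, SE 0.30) and 1.60 for Zfp36l2 (log2 -1.60, SE 0.49), with an edgeR adjusted p of 0.874 for both. EdgeR called 0 genes (0%) there, with 1104 (5.46%) at an unadjusted p under 0.05 and both genes among the 785 of these with a lower value (3.88%). DESeq2 called 224 genes (1.61%) and none of the 7, and thinned cells gave 88 called genes, with Zfp36l1 among the 11 lower ones (0.0808%; log2 -1.80, adjusted p = 0.0483, within a range of 0.0483 to 1). Between the Icos+ and Zbtb16+ gates the difference was -1.38 (SE 0.46) for Zfp36l2 and -0.69 (SE 0.29) for Zfp36l1, with an adjusted p of 1, 0 genes called (0%), 365 (2.02%) at an unadjusted p under 0.05, and 20 called by DESeq2 (0.11%), none of the 7.

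The other 4 genes did not share a direction between genotypes. Zc3h12a was at 5.57 against 17.4 CPM and 8.56 against 7.13 CPM in the Zbtb16+ gate, at 0.519 CPM from 2 reads against 20.4 CPM and 9.17 against 11.9 CPM in the Icos+ gate, and at 8.25 against 18.2 CPM in the Il1rl1+ gate of experiment 2. Rc3h1 was at 109 against 137 and 132 against 99.3 CPM in the Zbtb16+ gate, at 133 against 99.7 and 116 against 118.5 CPM in the Icos+ gate, and at 103 against 104 CPM in the Il1rl1+ gate. Rc3h2 was at 20.9 against 58.7 and 49.1 against 57.6 CPM in the Zbtb16+ gate, at 73.4 against 66.6 and 95.8 against 56.0 CPM in the Icos+ gate, and at 98.6 against 60.9 CPM in the Il1rl1+ gate. Elavl1 was at 37.6 against 61.1 and 72.0 against 82.5 CPM in the Zbtb16+ gate, at 4.41 against 51.8 and 106 against 77.1 CPM in the Icos+ gate, and at 75.4 against 69.7 CPM in the Il1rl1+ gate. None passed the test in any gate, with adjusted p of 0.831 or more in edgeR, and the 2 experiments disagreed in sign for Zc3h12a and Rc3h1 in the Zbtb16+ gate and for Rc3h1 and Elavl1 in the Icos+ gate.

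The Ccr6+ and Eomes+ gates had 2 and 4 G3SEKO cells in experiment 1, so values of experiment 2 are given without a test. In Ccr6+ cells (CCR6 is a chemokine receptor of lymphoid tissue inducer cells) G3SEKO against WT was 298 against 168 CPM for Zfp36, 593 against 405 CPM for Zfp36l1 and 383 against 441 CPM for Zfp36l2. The cell with the most reads of the gene held 25.9%, 17.4% and 29.1% of the reads of the 38 WT cells, and the share of cells with a Zfp36l2 read was the other way round, at 81.3% against 73.7%. Zc3h12a was at 36.9 against 14.0 CPM, with 74.1% of its 27 WT reads and 42.4% of its G3SEKO reads from 1 cell each, so no direction is read from it. The 13 immediate early and heat shock genes summed to 5778 against 3050 CPM in these Ccr6+ cells, and their part was not tested. In Eomes+ cells Zfp36 was at 144 against 214 CPM, Zfp36l1 at 257 against 310 CPM and Zfp36l2 at 522 against 566 CPM. These Eomes+ values came from 25 WT and 42 G3SEKO cells, and 1 WT cell held 43% of the Zfp36l1 reads. The order of the genotypes turned over for Zfp36l2 in thinned cells (573 against 547 CPM) and in the mean over cells (533.5 against 478 CPM), and for Zfp36l1 in the mean over cells (246 against 232 CPM), so no direction is read from the Eomes+ gate.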

How the data were processed

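The deposited tables hold raw read counts per gene and cell, which the authors made from TAS-Seq libraries with Bowtie2 and Seurat 4 (per the submitters' processing notes, build GRCm38/mm10), without a stated collapse of molecules, so intervals cover counting error only. Cells outside the authors' read limits, over 10% mitochondrial reads or with Id2 under 1 on the scale ln(1 + reads per 10000) were left out. Genotype came from the hashtag prefix of the cell name, which the authors assigned, and doublets were removed only through those hashtags. The experiments shared 5 cell barcode numbers.

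Counts were summed per gate, genotype and experiment (at least 5 cells) and tested with edgeR 4.0.16 (R 4.3.3, limma 3.58.1, TMM, filterByExpr, quasi-likelihood test, Benjamini-Hochberg adjustment over all genes tested), with the experiment as a block. Sums of one experiment came from the same library, and their deviations from the gate means correlated at 0.117 to 0.468 over 6 pairs of WT gates. Single-experiment log2 ratios had 2 reads added. Since the labels name no separate mice, p-values measure the spread between these sums, which may be technical. DESeq2 1.42.0, hashtag sums, thinned cells (each cell drawn down to the read limit of experiment 2), other gates and filters, and leaving out replicates were alternatives, and the fits with the Il1rl1+ G3SEKO sum were chosen after seeing the data. The scripts were tested on simulated data. The 7 genes and the gene lists were chosen with earlier results of these data known. Named genes were the 7, list genes that passed the test, the 3 genes most like each ZFP36 gene and the gate genes, and exceptions are marked. Sequences came from RefSeq promoters and from GENCODE vM21 on GRCm38, with 1 transcript per gene (APPRIS principal, then longest), which is another annotation than the authors used.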

Additional observations from a re-analysis of the deposited data

Results flagged for a closer look

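In the summed CPM the genotype difference of a pair of genes pointed in opposite directions in the Zbtb16+ and Icos+ gates, in both experiments. The share of all genes with such a pattern was not counted. For Zfp36l2, log2 of G3SEKO over WT was 0.69 and 0.04 in Zbtb16+ cells of experiments 1 and 2 and -0.83 and -1.02 in Icos+ cells. The 0.04 of experiment 2 sets no direction. Zfp36l2 was lower in those G3SEKO cells by the mean over cells (620 against 797 CPM) and in thinned cells (622.5 against 802 CPM). The test of the difference between gates gave -1.38 (SE 0.46, edgeR adjusted p = 1, and 0.859 to 1 over its alternatives). The Zbtb16+ value of Zfp36l2 ranged from -0.21 to 0.73 over its alternatives and was below 0, like the Icos+ value, in thinned cells (-0.10) and with gates on 1 gene each (-0.21). For Rc3h2 the values were -1.49 and -0.23 in Zbtb16+ cells and 0.14 and 0.78 in Icos+ cells, with a difference of 1.22 (SE 0.76, adjusted p = 1), and the Icos+ value ranged from -0.09 to 0.57 over its alternatives. Neither difference passed the test, and experiment 1 held 17 and 6 G3SEKO cells in these gates.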

How the results depend on the processing

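The 7 genes in Il1rl1+ minus Zbtb16+ WT cells and the 3 ZFP36 genes in every other comparison but Eomes+ minus Zbtb16+ gave 337 log2 differences under an alternative. Of these, 18 passed the threshold where the reported value did not (12 in planned comparisons and 6 in those chosen after seeing the data), 11 changed sign, and the others kept their direction and side of it. For Il1rl1+ minus Zbtb16+ WT cells, the alternatives that passed gave 1.98 (DESeq2), 2.02 (no filter on low counts) and 1.49 (thinned) for Zfp36, 1.33 (DESeq2), 1.30 (hashtag sums) and 1.40 (thinned) for Zfp36l1, and 1.63, 1.51 and 1.46 for Zfp36l2. For G3SEKO minus WT they gave -1.78 (thinned) for Zfp36 in Icos+ cells, and in Il1rl1+ cells -1.57 (thinned) for Zfp36, -1.49 (DESeq2), -2.01 (thinned) and -1.69 (gates on 1 gene each) for Zfp36l1 and -1.09 (thinned) for Zfp36l2. Leaving out an experiment gave values with no test, 1.69 to 2.15 for Zfp36, 1.24 to 1.30 for Zfp36l1 and 1.46 to 1.69 for Zfp36l2 in WT cells, and -5.37 to -0.75, -1.05 to -0.79 and -1.02 to -0.83 in Icos+ cells of G3SEKO minus WT. The values of this set that changed sign in WT cells were Rc3h1 (thinned 0.13, without replicate 1 0.07) and Rc3h2 (hashtag sums -0.01, gate limit of 1.5 -0.14, gates on 1 gene each -0.06, without replicate 2 -0.08, mean of each cell's CPM -0.08). In G3SEKO minus WT Zbtb16+ cells they were Zfp36 (from -0.69, no Id2 limit 0.63), Zfp36l1 (without replicate 1 0.02) and Zfp36l2 (from 0.43, thinned -0.10, gates on 1 gene each -0.21). Leaving out the other experiment gave -0.34 for Rc3h1 and 0.08 for Rc3h2 in WT cells and -0.51 for Zfp36l1 in Zbtb16+ cells. The cause was not tested. Of the other 35 pairs of a gene and a comparison, 23 had values on both sides of 0 over the alternatives and none passed the threshold. In Eomes+ minus Zbtb16+ cells Zfp36 ran from -0.53 to 0.37, Zfp36l2 from -0.41 to 0.15 and Zc3h12a from -8.48 to 0.67, and Elavl1 ran from -1.69 to 0.15 in Icos+ cells of G3SEKO minus WT.

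Counts of called genes depended on the setting. Il1rl1+ minus Zbtb16+ gave 1245 genes by DESeq2, 59 with no filter, 36 with no replicate block, 281 with hashtag sums, 449 thinned, 8 with a gate limit of 1.5 and 16 with gates on 1 gene each. Without the replicate block the adjusted p was 0.673 for Zfp36, 0.0865 for Zfp36l1 and 0.286 for Zfp36l2, and the block changed no call of the 7 genes. Icos+ minus Zbtb16+ gave 772 by DESeq2, 1 with no filter, 1 with no replicate block, 29 with hashtag sums and 91 thinned. Il1rl1+ minus Icos+ gave 256 by DESeq2, 1 with no filter, 16 with hashtag sums, 11 thinned and 2 with a gate limit of 1.5. Eomes+ minus Zbtb16+ gave 1855 by DESeq2, 185 with hashtag sums, 19 thinned and 1 with gates on 1 gene each. G3SEKO minus WT gave 20 by DESeq2 and 1 thinned in Zbtb16+ cells, and 119 by DESeq2, 1 with hashtag sums, 71 thinned and 5 with gates on 1 gene each in Icos+ cells. In Il1rl1+ cells it gave 3 with DESeq2 size factors in edgeR, 561 by DESeq2, 2 with no filter, 4 with hashtag sums, 292 thinned, 7 with a gate limit of 1.5 and 347 with gates on 1 gene each. The difference between gates gave 20 by DESeq2 and 1 thinned for Icos+ minus Zbtb16+, and 224 and 88 for Il1rl1+ minus Zbtb16+.

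Thinning lowered the shares of WT cells with a read to 19.3%, 36.6%, 31.5% and 55.8% for Zfp36, 62.5%, 88.7%, 58.8% and 81.9% for Zfp36l1, and 68.2%, 85.1%, 67.6% and 92.4% for Zfp36l2, each in the order Zbtb16+ and Il1rl1+ of experiment 1, then of experiment 2.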
